A study of Mus musculus with 18 samples.

Results

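The type I interferon-stimulated antiviral genes are a set of 42 genes that cells switch on after sensing a virus or interferon. They were taken by gene symbol from the deposited table of mouse bone marrow derived macrophages, and all 42 were found among its 16474 genes. All 42 also passed the filter on low values (a normalised read count of at least 10 in at least 3 libraries), as did 15627 genes in all. No member had a library at 0, and the lowest value of any member was 13.6, for Oasl1 in the p110g-/- IL-4 library numbered 2. The study compared macrophages of wild-type mice (WT) with those of p110g-/- mice, which lack the catalytic subunit p110gamma of a phosphoinositide 3-kinase that is encoded by Pik3cg. All mice were C57BL/6 and 8 weeks old, and all marrow was first grown for 6 days with 50 ng/ml M-CSF, the growth factor that turns marrow cells into macrophages. Each genotype was then held in 20 ng/ml M-CSF alone (24 h), in the same M-CSF plus interferon gamma and 100 ng/ml lipopolysaccharide (IFNg/LPS, 24 h), or in the same M-CSF plus 20 ng/ml IL-4 (48 h). The 6 groups held 3 libraries each, numbered 1 to 3 in the labels, so every group including the controls carried M-CSF, and in the IL-4 groups stimulus and time cannot be told apart.

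Type I interferons signal through the receptor chains IFNAR1 and IFNAR2 and the kinases JAK1 and TYK2 to transcription factors, STAT2 and IRF9 among them, that bind the interferon-stimulated response element in promoters. Interferon gamma acts through its own receptor and leads to binding at the gamma-activated site. Lipopolysaccharide acts through the receptor TLR4, which in macrophages leads to production of interferon beta. The genes switched on in this way include proteins that bind or cut viral RNA, that block viral entry, assembly or release, that sense nucleic acids, and that restrain the response itself.

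Promoters are shown for 4 members whose transcripts rose strongly with IFNg/LPS, 3 that hold the core of the interferon-stimulated response element and 1 that does not. The core was searched as GAAA, any 2 bases and GAAA on both strands, so that on the other strand it reads TTTC, any 2 bases and TTTC, and matches are in capitals. The windows are 300 bases around the annotated start, read in the direction of the gene, from RefSeq on GRCm38.p6. Isg15, at chr4:156200769-156201068 (minus strand), encodes a ubiquitin-like modifier and holds 3 matches that overlap in 1 run. Ifit1, at chr19:34640639-34640938 (plus strand), encodes a protein that binds viral RNA and holds 2. Rsad2, at chr12:26456403-26456702 (minus strand), encodes viperin, which makes a chain-terminating nucleotide, and holds 1. Cmpk2, at chr12:26468965-26469264 (plus strand), encodes a mitochondrial nucleotide kinase and holds none.
Isg15: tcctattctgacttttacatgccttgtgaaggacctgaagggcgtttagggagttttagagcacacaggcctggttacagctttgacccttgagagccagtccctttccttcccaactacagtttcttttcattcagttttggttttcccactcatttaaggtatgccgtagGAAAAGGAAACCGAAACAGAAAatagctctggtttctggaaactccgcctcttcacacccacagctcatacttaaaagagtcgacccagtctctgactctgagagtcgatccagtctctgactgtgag
Ifit1: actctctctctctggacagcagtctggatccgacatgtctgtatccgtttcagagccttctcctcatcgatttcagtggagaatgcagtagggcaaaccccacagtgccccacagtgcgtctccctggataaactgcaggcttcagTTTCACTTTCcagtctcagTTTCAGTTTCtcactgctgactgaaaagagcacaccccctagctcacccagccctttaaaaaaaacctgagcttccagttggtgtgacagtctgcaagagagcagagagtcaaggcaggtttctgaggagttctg
Rsad2: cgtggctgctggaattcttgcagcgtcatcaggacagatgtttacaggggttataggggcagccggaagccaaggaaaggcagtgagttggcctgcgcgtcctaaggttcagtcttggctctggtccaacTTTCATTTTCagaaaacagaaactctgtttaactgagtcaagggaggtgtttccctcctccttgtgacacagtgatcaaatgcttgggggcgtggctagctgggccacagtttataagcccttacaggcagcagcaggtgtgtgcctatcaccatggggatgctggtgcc
Cmpk2: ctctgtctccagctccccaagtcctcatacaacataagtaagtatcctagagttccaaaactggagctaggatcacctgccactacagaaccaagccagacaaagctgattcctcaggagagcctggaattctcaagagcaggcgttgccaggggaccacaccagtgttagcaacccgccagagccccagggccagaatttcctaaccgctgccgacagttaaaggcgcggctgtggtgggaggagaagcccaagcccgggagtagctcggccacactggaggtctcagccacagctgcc

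RefSeq promoters were matched for 30 of the 42 members, with 36 promoters in all. The core was found in at least 1 promoter of 14 of these 30 genes (46.7%), against 474 of 12020 genes of the table with a promoter (3.94%). Counted over promoters, it was in 14 of 36 (38.9%), against 1131 of 32851 promoters of the same length (3.44%). The gamma-activated site, searched as TTC, any 3 bases and GAA on both strands, was in promoters of 8 of the 30 genes (26.7%), against 8.37% of the genes of the table. The match nearest to the start lay 56 bases before it in Isg15, 75 in Ifit1 and 110 in Rsad2. Ifit2, Oasl1, Oasl2, Ifi44, Herc6, Pml and Trim25 were among the matched members in which the core was not found in this window. These letters are a description of the windows and were not tested for binding.

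Libraries held 40.1 to 69.6 M recovered reads (M is 1e6), and an expected count of up to 3 reads, which a 0 allows, was a value of 2.15 to 4.74. The targeted gene Pik3cg was lower in p110g-/- in M-CSF (-1.41, SE 0.23, adjusted p = 0.0027) and in IL-4 (-1.63, SE 0.23, adjusted p = 0.00063). Here and below, parentheses after a gene give its log2 fold change, the SE of the fit and the adjusted p by limma with Benjamini-Hochberg correction over all genes. In IFNg/LPS it stood at 3691.4, 1410.5 and 2036.7 in the libraries labelled p110g-/- 1 to 3 and at 3559.5, 2309.0 and 2604.2 in WT, so the library labelled p110g-/- IFNg/LPS 1 was above all 3 WT libraries. Every genotype statement under IFNg/LPS below therefore rests on labels that this gene does not bear out for 1 library. Macrophage markers were present throughout: Csf1r, the M-CSF receptor, was at 46926 or more in each library, and 7 of 8 listed markers were in the table. In bulk samples such as these, fewer cells of a type and less RNA per cell cannot be told apart.

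By the median over members, the libraries numbered 1 stood above the mean of numbers 2 and 3 in each group, and by far the most in WT M-CSF. There, number 1 exceeded the mean of numbers 2 and 3 for 42 of 42 members, by a median of 1.27 on the log2 scale, a ratio of 2.41. The range ran from 0.26 for Trim25, a ubiquitin ligase of the RNA sensing pathway, to 2.72 for Ifi44, an interferon-induced cytoplasmic protein. A difference beyond 1 was seen for 28 of 42 members, against 6.36% of all genes tested, and the median of all genes was -0.001. Numbers 2 and 3 of that group differed by a median of only 0.08 over the members. Ifit1 had 2379.9, 530.3 and 350.7 normalised reads in WT M-CSF libraries 1 to 3, and Ifi44 had 1059.3, 170.4 and 150.5. For both genes number 1 was several times above the other two, which lay closer together.

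In the other 5 groups the difference was smaller. The median over members was 0.34 in p110g-/- M-CSF, 0.29 in WT IL-4, 0.23 in p110g-/- IFNg/LPS, 0.17 in WT IFNg/LPS and 0.14 in p110g-/- IL-4, while the median of all genes stayed between -0.026 and 0.001. Number 1 was the higher for 40, 37, 36, 34 and 30 members in the same order. Between 45.4% and 50.2% of all genes were higher in number 1 in these groups. The p110g-/- M-CSF group was split in another way: its libraries 2 and 3 differed by a median of 0.81 over the members, and number 2 was the lowest of its 3 libraries for 42 of 42 members, against 32.4% of all genes. Numbers 1 and 3 of that group were each the highest for 21 members. In p110g-/- IFNg/LPS the members took 4.65% of the reads of number 1 and 4.91% of those of number 3. The oligoadenylate synthetases, enzymes that double-stranded RNA switches on, were among the members that differed most in IL-4. Oas2 was 308.3, 108.7 and 99.6 in WT IL-4 libraries 1 to 3 and 105.5, 31.0 and 64.1 in p110g-/- IL-4. Its number 1 was the highest in both genotypes.

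In number 1, 21 of 42 members were higher in all 6 groups, against 6.58% of all genes. They included Oas2, Oas3, Isg15, Rsad2, Ifit1, Usp18 and Adar. Ifitm3, a membrane protein that blocks viral entry, was the exception at the other end and was higher in only 2 groups. Over the 6 M-CSF libraries, WT number 1 was the highest for 41 of 42 members (21.3% of all genes) and p110g-/- number 2 the lowest for 40 (18.4%). The same 2 libraries of the IFNg/LPS groups were the extremes for 29 and 34 members (20.3% and 20.9% of all genes), and those of the IL-4 groups for 30 and 22 (18.6% and 19.4%). The plot of the libraries numbered 1 gives these differences for each member.

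**Figure D1:**
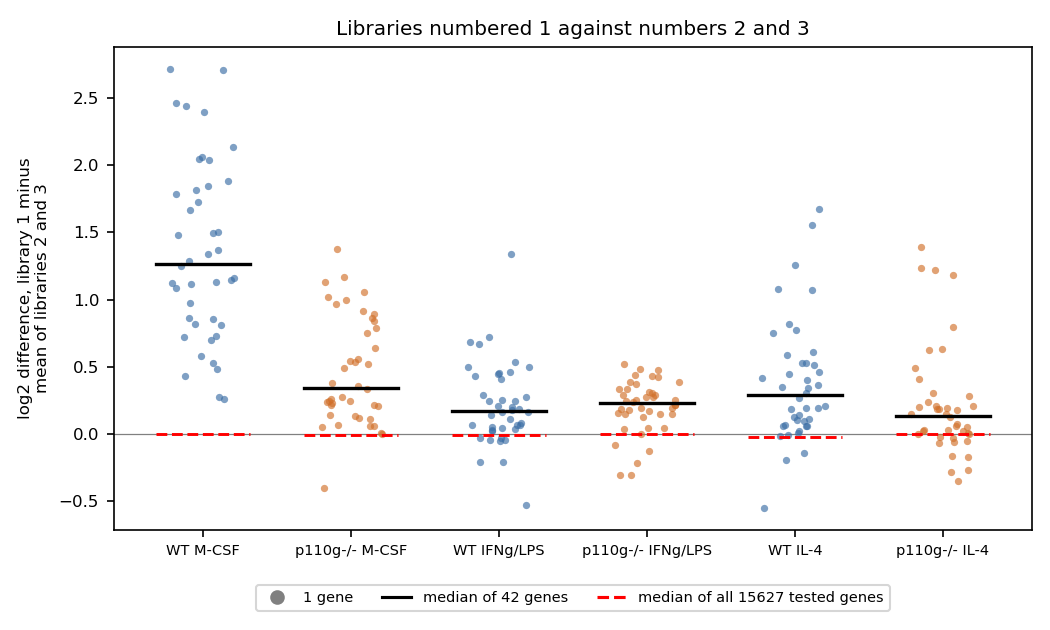
Each point is 1 of 42 members; the vertical axis is the log2 difference of the library numbered 1 from the mean of numbers 2 and 3 in its group, for 6 groups. Black lines are medians of the members and red dashed lines medians of all 15627 genes tested; all 42 points lie above 0 in WT M-CSF, where the median is 1.27.

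Some markers of other cells were also higher in number 1. The summed level of 8 neutrophil markers was 29509, 5795.0 and 8983.5 in WT M-CSF libraries 1 to 3. It was 22861, 8538.4 and 10385 in p110g-/- M-CSF and 19443.0, 4106.6 and 3955.2 in WT IL-4. For p110g-/- macrophages held with IL-4 it was 8234.6, 4745.4 and 4777.8. With IFNg/LPS, number 3 had the highest sum: 2410.9, 2099.0 and 3202.7 (WT) and 1279.4, 1007.1 and 1874.8 (p110g-/-). Of these markers, S100a8, S100a9, Ngp, Camp, Mpo and Elane were each highest in number 1 in both M-CSF groups. Mpo was at 1084.7, 130.2 and 153.7 in WT M-CSF libraries 1 to 3, and Elane at 272.7, 22.7 and 20.6. Ly6g, of the same list, was at only 0 to 3.8 in the M-CSF groups. Retnlg, also of this list, was lowest in number 1 there: 9.2, 21.8 and 39.0 (WT) and 0.0, 12.0 and 23.8 (p110g-/-). The sum of 5 fibroblast markers was 2411.2, 451.6 and 366.9 in WT M-CSF but 1194.5, 731.5 and 1347.8 in p110g-/- IL-4, where number 3 was the highest. The sum of 4 B cell markers, of 5 listed, was highest in number 1 in all 6 groups, with 427.1, 164.2 and 176.5 in WT M-CSF and 94.4, 71.9 and 55.3 in WT IFNg/LPS. Among 6 dendritic cell markers, Itgax, which macrophages also express, went the other way in WT M-CSF, with 9233.0, 26850 and 19746, while each of the other 5 was at 135.3 or less there. The 5 plasmacytoid dendritic cell markers in the table, of 6 listed, summed to 3820.5 to 4911.1 over the M-CSF groups, mostly from Tcf4. In WT M-CSF, Tcf4 was at 4315.7, 3761.2 and 3823.3, and Runx2 at 447.1, 421.1 and 452.5. Siglech was at 44.6, 38.4 and 39.0 there, and Ccr9 at 41.5, 31.5 and 19.5. Ly6d was higher in number 1, at 62.2, 4.4 and 7.6 in WT M-CSF and 89.7, 2.2 and 14.3 in p110g-/- M-CSF. So was Siglech in WT IL-4, at 60.4, 14.9 and 4.7. The part of other cells in the member levels was not tested.

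IFNg/LPS raised all 42 members in both genotypes. By limma with Benjamini-Hochberg adjustment over all genes, 42 of 42 were higher than in M-CSF in WT, against 36.3% of all genes, and 42 of 42 in p110g-/-, against 36.2%. No IFNg/LPS library overlapped an M-CSF library of its genotype for any member, against 37.7% of all genes in WT and 37.3% in p110g-/- with every IFNg/LPS library above. The median log2 fold change of the members was 3.38 in WT, with a range of 1.64 to 8.73, and 3.60 in p110g-/-, with a range of 1.88 to 10.10. Fold changes here and below are on the scale of log2(value + 1). The members took 0.204% to 0.449% of all reads in WT M-CSF and 4.42% to 5.86% in WT IFNg/LPS. In p110g-/- the shares were 0.156% to 0.237% and 4.08% to 4.91%. The M-CSF baseline carries the high WT library: without any number 1 the median in WT was 3.79, and 42 members still passed.

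The IFIT proteins, which bind viral RNA and stop its translation, were among the members with the highest ratios. Ifit1 went from 2379.9, 530.3 and 350.7 in WT M-CSF to 190096, 144928 and 124473 in WT IFNg/LPS, so that its log2 fold change was 7.63 (SE 0.54, adjusted p = 3.8e-09). In p110g-/- it went from 708.1, 241.5 and 579.6 to 137004, 101839.9 and 125843. The lowest IFNg/LPS library was far above the highest M-CSF library. The 3 IFIT genes together had a median log2 fold change of 7.52 in WT and 7.80 in p110g-/-.

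The Mx GTPases trap viral nucleocapsids, and viperin and its neighbour CMPK2 act on nucleotides. Mx1 was 1309.0, 387.0 and 257.6 in WT M-CSF and 222503, 153791 and 125469.9 in WT IFNg/LPS, a 320-fold rise. Rsad2 had the steepest rise of the set. It went from 5233.0, 1479.1 and 1096.6 to 1178843, 851719 and 647825 in WT (8.73, SE 0.48, adjusted p = 2e-10) and from 1113.9, 413.1 and 781.0 to 797781, 691176 and 867246 in p110g-/- (10.10, SE 0.48, adjusted p = 3.8e-11). The IFNg/LPS libraries of the genotypes overlapped, and those of M-CSF overlapped as well. Rsad2 alone took up to 1.74% of the reads of a library. Cmpk2, without a core match in its window, rose from 2560.4, 1027.5 and 792.4 to 382088, 306796 and 254067 in WT, 242-fold.

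The oligoadenylate synthetases make a second messenger that activates the RNA-cutting enzyme RNase L. Oas2 rose from 3770.3, 1269.5 and 1433.2 to 19129, 13740.3 and 14112 in WT (3.02, SE 0.55, adjusted p = 0.00012). This was the smallest rise among the 7 genes counted with the synthetases, which include the exonuclease gene Isg20. Oasl1, an oligoadenylate synthetase-like protein known to limit IRF7 translation, rose 310-fold in WT and 875-fold in p110g-/-. The 2 large ratios of Oasl1 rest on M-CSF levels of 745.9, 146.8 and 135.3 in WT and 173.6, 26.2 and 165.3 in p110g-/-. Oas1a and Oas1g are near-identical copies, and how shared reads were assigned is not given in the sources used here, so their separate values are uncertain. How reads shared with related genes were assigned is likewise not known for Ifi204, Ifi205 and Ifit3, so their values are uncertain as well.

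ISG15 is attached to other proteins by a ligase cascade, and USP18 removes it and also restrains the interferon receptor. Isg15 was 1170.7, 356.5 and 295.5 in WT M-CSF and 94927, 79579 and 80113 in WT IFNg/LPS (7.41, SE 0.38, adjusted p = 9.8e-11). Usp18 was 1240.6, 292.7 and 270.6 and 59062, 46003 and 41701 (6.71, SE 0.49, adjusted p = 6.1e-09). In p110g-/- Isg15 rose 217-fold and Usp18 149-fold. Herc6, the ligase that attaches ISG15 in mice, rose 24.2-fold in WT and 24.2-fold in p110g-/-, with an SE of 0.19 on the log2 scale. Trim25 had the smallest rise of the 42 members in both genotypes, 3.12-fold and 3.68-fold, but from M-CSF levels of 14680.2, 11991 and 12540.5 in WT. Its IFNg/LPS libraries, 41802, 40277 and 39725 in WT, still lay wholly above.

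The sensors rose less steeply, with a median log2 fold change over 8 genes of 3.27 in WT and 3.42 in p110g-/-. Ifih1, which encodes the double-stranded RNA sensor MDA5, was 3468.4, 1882.8 and 1957.1 in WT M-CSF and 37209.6, 28224 and 27795 in WT IFNg/LPS (3.72, SE 0.20, adjusted p = 1.6e-10). Adar, the editing enzyme that marks the cell's own double-stranded RNA, was 4963.3, 3468.5 and 3429.3 and 23015, 18342 and 19253 (2.37, SE 0.14, adjusted p = 4.7e-10). Among membrane proteins, the tether Bst2, which holds budding virus on the cell, was 7613.6, 3435.3 and 3574.4 and 68942, 63875 and 70611 (3.90, SE 0.26, adjusted p = 1.5e-09). The smallest adjusted p of the set belonged to Pml, the organiser of nuclear bodies. Pml was 2244.7, 1928.2 and 1781.8 in WT M-CSF and 15404, 14239 and 14882 in WT IFNg/LPS, and its log2 fold change was 2.91 (SE 0.08, adjusted p = 9.3e-14) in WT and 2.92 (SE 0.08, adjusted p = 9.4e-14) in p110g-/-. Its 3 libraries differed by at most 1.26-fold within WT M-CSF and 1.12-fold or less in each of the other groups. Trim21, an antibody receptor in the cytosol, rose by 2.93 (SE 0.12) in WT. The 7 PARP, nuclear body and other induced genes had a median rise of 3.19 in WT and 3.14 in p110g-/-, and the 5 membrane proteins one of 2.88 and 2.85.

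**Figure D2:**
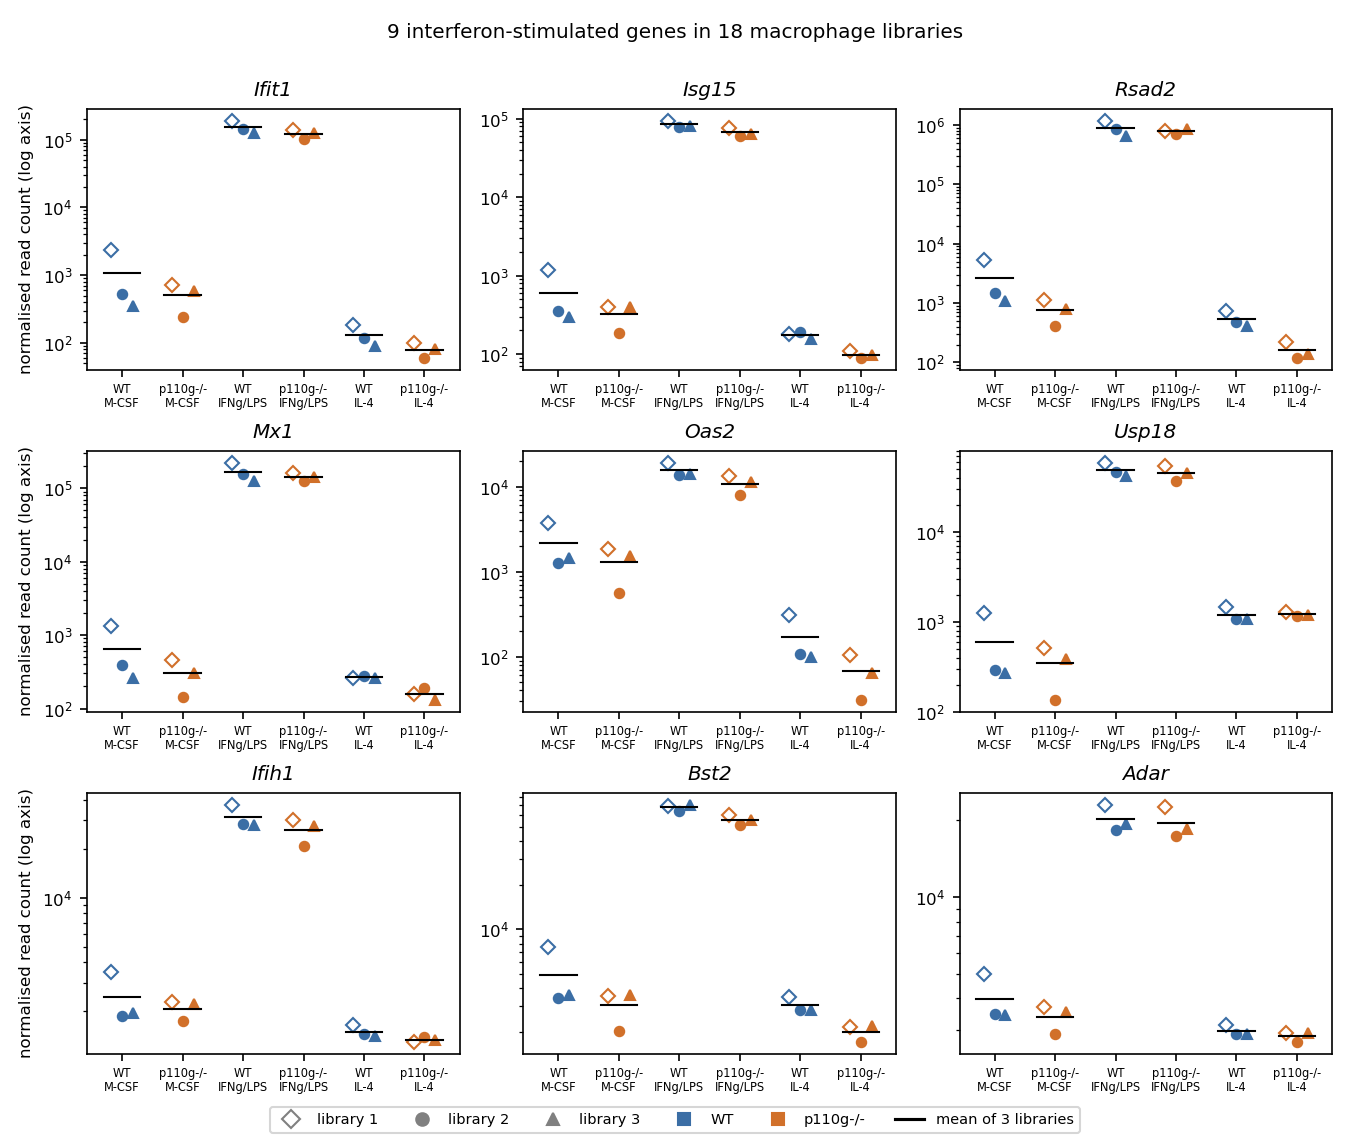
Normalised read counts on a log axis for 9 members, chosen by role, in the 18 libraries; symbols give the library number, colours the genotype and lines the mean of 3. All 6 IFNg/LPS libraries lie above all M-CSF and IL-4 libraries for each gene, and the open diamond (library 1) of WT M-CSF stands above libraries 2 and 3.

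**Figure D3:**
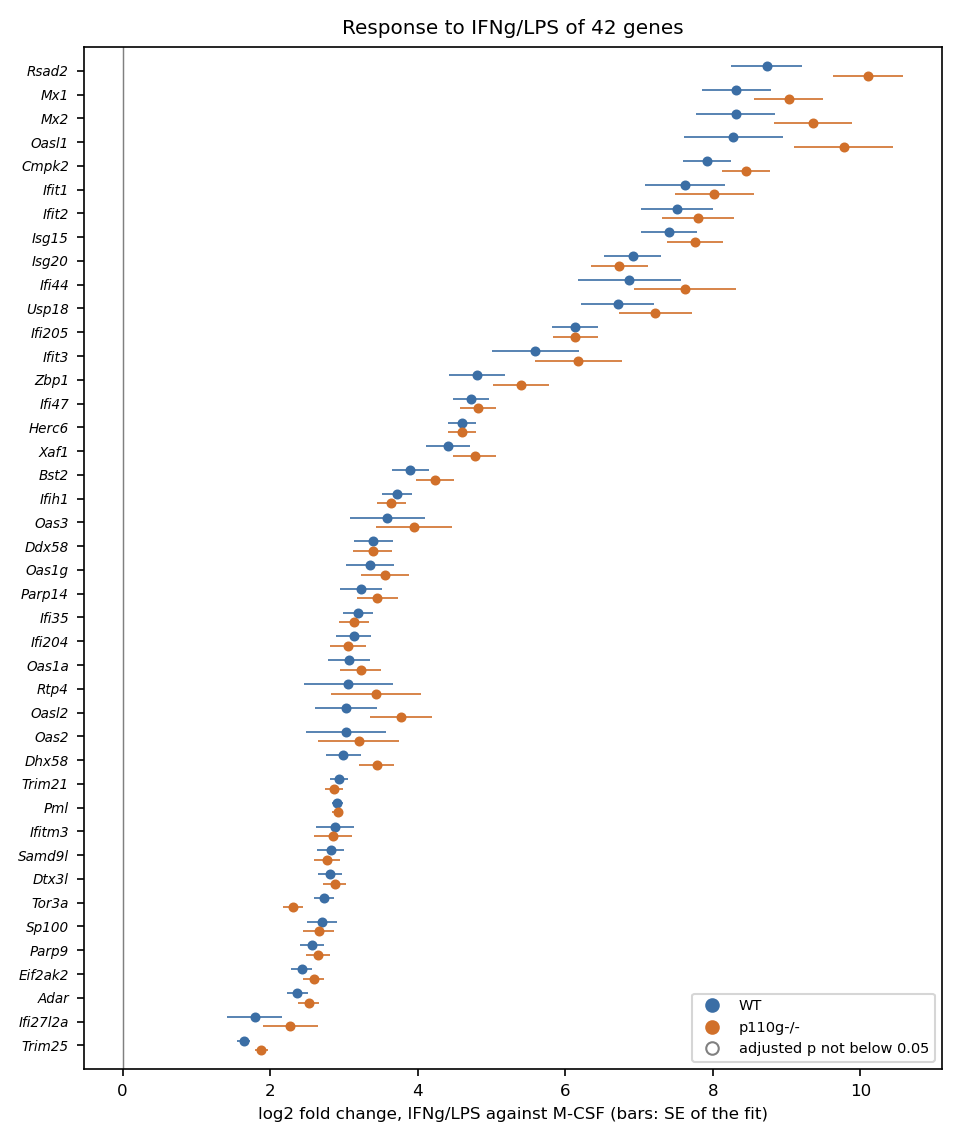
Log2 fold change of IFNg/LPS against M-CSF for each of the 42 members in WT (blue) and p110g-/- (orange), with the SE of the fit as bars. All values lie above 0 and all pass; the steepest is Rsad2 and the shallowest Trim25 in both genotypes.

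With IL-4 for 48 h, most members were lower than with M-CSF for 24 h. In WT, 31 of 42 were lower, against 21.1% of all genes, and 1 was higher, against 22.9% (limma, Benjamini-Hochberg). In p110g-/-, 22 were lower, against 21.2%, and 1 was higher, against 22.7%. The median log2 fold change of the members was -0.87 in WT and -0.61 in p110g-/-. The WT count rests in part on the WT M-CSF library numbered 1: without it 18 members were lower, against 17.3% of all genes, and 3 higher, against 19.6%, with a median of -0.44. Without any number 1, 23 were lower in WT, against 23.3%, and 3 higher, against 27.1%, with a median of -0.54. In p110g-/- 23 were then lower, against 23%, and 2 higher, against 24.7%, also with a median of -0.54. In a fit of the WT groups alone, 19 were lower, against 21.2%, and none higher. Under a replicate block, 36 were lower in WT, against 22.9% of all genes, and 28 in p110g-/-, against 23.4%.

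Oas2 and Ifit3 had the lowest values relative to M-CSF in both genotypes, and Ifit1, Ifit2 and Rtp4, which encodes a receptor transporter protein, followed in WT. Oas2 was 3770.3, 1269.5 and 1433.2 in WT M-CSF and 308.3, 108.7 and 99.6 in WT IL-4, and its log2 fold change by limma was -3.66 (SE 0.55, adjusted p = 7.6e-05). In p110g-/- it was 1848.4, 554.1 and 1506.0 and 105.5, 31.0 and 64.1 (-4.26, SE 0.55, adjusted p = 1.7e-05). The stimuli did not overlap in either genotype, and the adjusted p in WT stayed between 1.2e-08 and 0.0032 over 17 alternatives. Ifit3 was 5407.3, 921.7 and 738.3 in WT M-CSF and 161.6, 86.3 and 66.8 in WT IL-4 (-3.97, SE 0.59, adjusted p = 7.8e-05), and fell 12.3-fold in p110g-/-. Ifit1 was 183.9, 118.6 and 91.4 in WT IL-4 (-2.59, SE 0.54, adjusted p = 0.0012), below every WT M-CSF library. Ifit2 fell by 2.70 on the log2 scale in WT (adjusted p = 0.00045). Rtp4 fell in WT (-2.47, SE 0.61, adjusted p = 0.004) and in p110g-/- (-2.88, SE 0.61, adjusted p = 0.0013), and Oas3 fell by 2.62 in p110g-/- (adjusted p = 0.00068). All 3 IFIT genes and 5 of the 7 genes counted with the synthetases, the exonuclease gene Isg20 included, fell in each genotype.

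Ifitm3 was 9070.9, 5584.6 and 5434.1 in WT M-CSF and 1848.0, 2547.3 and 2875.3 in WT IL-4 (-1.45, SE 0.26, adjusted p = 0.00041). In p110g-/- it was 4360.0, 3995.4 and 8352.7 and 1287.8, 1367.3 and 1976.7 (-1.79, SE 0.26, adjusted p = 5.7e-05). The stimuli did not overlap in either genotype. Within the IL-4 groups its library numbered 1 was the lowest, the reverse of most members. Rsad2 fell from 5233.0, 1479.1 and 1096.6 to 745.7, 472.0 and 415.8 in WT (-1.95, SE 0.48, adjusted p = 0.0038) and from 1113.9, 413.1 and 781.0 to 222.4, 119.2 and 137.4 in p110g-/- (-2.20, SE 0.48, adjusted p = 0.0016). Isg15 fell 2.85-fold in WT (adjusted p = 0.0046) and 3.13-fold in p110g-/- (adjusted p = 0.0025), to 179.2, 188.3 and 156.9 and 107.6, 89.1 and 97.3.

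Among the 6 genes for ISG15, its protease and ubiquitin ligases, 5 fell and 1 rose in WT. In p110g-/- 2 of them fell and 1 rose. The ligases counted there include Trim21 and Dtx3l. Of the 6 genes grouped as GTPases and nucleotide enzymes, with Samd9l counted among them, 5 fell in WT and 4 in p110g-/-. Among the 7 PARP, nuclear body and other induced genes 5 and 3 fell, and among the 5 membrane proteins 2 and 2. The 8 sensors and double-stranded RNA enzymes had a median of -0.75 in WT, where 6 fell, and of -0.42 in p110g-/-, where 3 fell. Ifih1 was 1651.1, 1443.3 and 1413.6 in WT IL-4 (-0.64, SE 0.20, adjusted p = 0.016), and that call ended without WT M-CSF library 1, without WT IL-4 library 2 or 3, or in the fit of the WT groups alone. Adar was 3129.5, 2882.4 and 2903.4 in WT IL-4 (-0.39, SE 0.14, adjusted p = 0.033) and did not pass in p110g-/- (-0.24, SE 0.14, adjusted p = 0.18). The WT call for Adar ended under the same 4 alternatives as for Ifih1, and with the block Adar passed in p110g-/- (adjusted p = 0.038). Mx1 was 263.7, 276.2 and 256.5 in WT IL-4 and did not pass (-0.93, SE 0.47, adjusted p = 0.12). Its WT M-CSF libraries 2 and 3 were 387.0 and 257.6, so the groups overlapped. Bst2 did not pass in WT (adjusted p = 0.075) or p110g-/- (adjusted p = 0.09), but did with the block (adjusted p = 0.026 and 0.033).

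Usp18 was the member that rose with IL-4. It was 1240.6, 292.7 and 270.6 in WT M-CSF and 1466.3, 1069.2 and 1063.5 in WT IL-4 (1.36, SE 0.49, adjusted p = 0.036). WT M-CSF library 1 lay within the range of the IL-4 libraries, so the groups overlapped. In WT the call ended under 9 of 17 alternatives, with adjusted p up to 0.16, among them edgeR, DESeq2, the fit of the WT groups alone, and leaving out WT M-CSF library 2 or 3 or any WT IL-4 library. In p110g-/- Usp18 was 516.1, 135.5 and 388.6 and 1300.0, 1160.9 and 1190.2 (2.01, SE 0.49, adjusted p = 0.0039), without overlap, and it passed under all 17 alternatives. Pml and Tor3a, an ATPase of the endoplasmic reticulum, had values above 0 in WT (0.10 and 0.33) and did not pass (adjusted p = 0.28 and 0.056). They passed with Usp18 without WT M-CSF library 1, and Tor3a passed with the block (adjusted p = 0.0036).

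**Figure D4:**
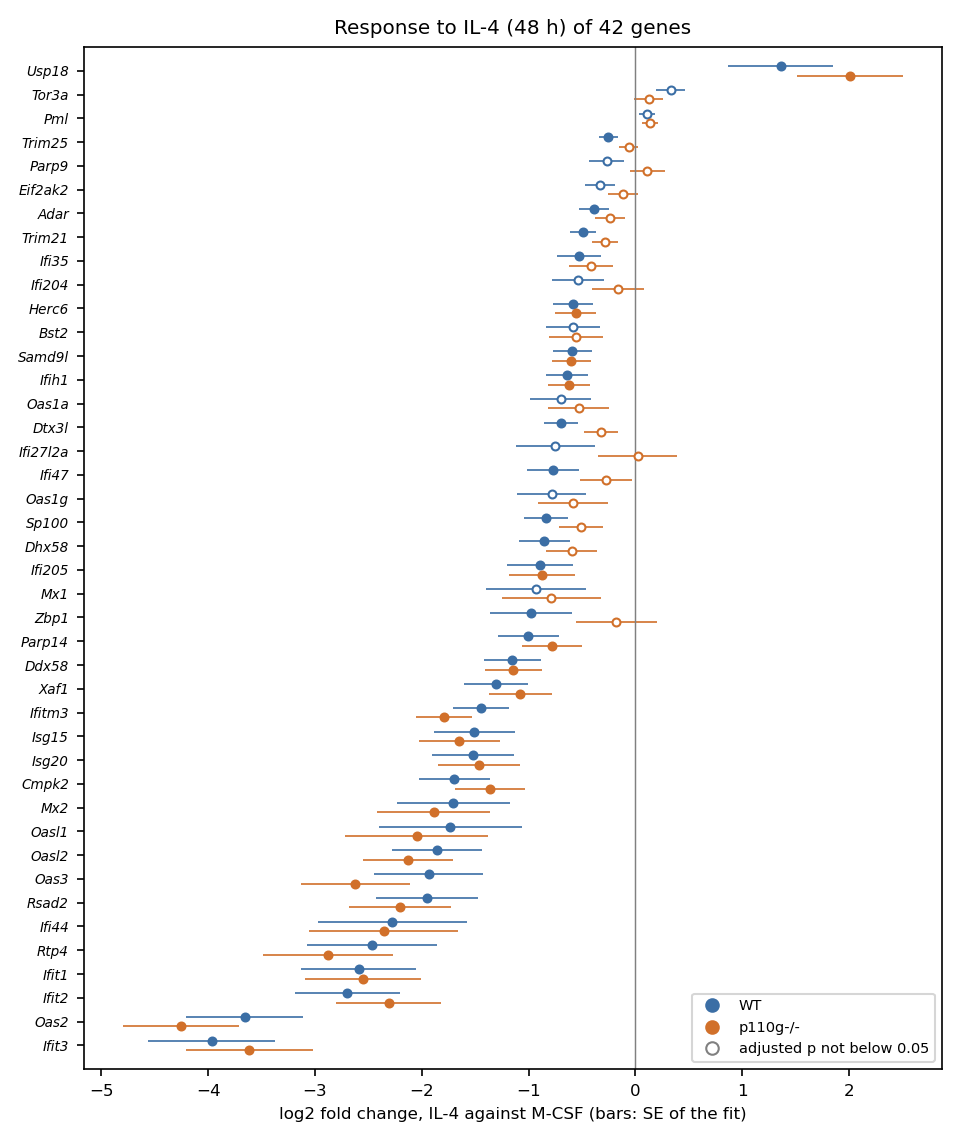
Log2 fold change of IL-4 (48 h) against M-CSF (24 h) for each of the 42 members in WT (blue) and p110g-/- (orange), with the SE of the fit as bars; open symbols did not pass an adjusted p of 0.05. Most values lie below 0, down to -3.97 for Ifit3 in WT and -4.26 for Oas2 in p110g-/-, and Usp18 is the filled point above 0.

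Between genotypes, no member passed in M-CSF, in IFNg/LPS or in IL-4 by limma with Benjamini-Hochberg adjustment, although the fitted values were mostly below 0 in p110g-/-. Of all genes, 2.34% passed in M-CSF, 14.7% in IFNg/LPS and 3.33% in IL-4. Fitted differences were below 0 for 41, 38 and 38 of 42 members, against 50.2%, 49.8% and 50.7% of all genes. Their medians were -0.46, -0.25 and -0.28 on the log2 scale. At an unadjusted p under 0.05, 9, 3 and 8 members were lower, against 7.01%, 14.7% and 7.92% of all genes lower. By edgeR with TMM scaling no member passed either, and by DESeq2 3, 1 and 1 were lower, against 2.41%, 9.29% and 3.22% of all genes. Groups did not overlap, with p110g-/- lower, for 2 members in M-CSF, 18 in IFNg/LPS and 19 in IL-4, against 10.9%, 14.8% and 11.4% of all genes. The members move together within a library, so these counts do not add up independent evidence.

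The M-CSF median moved by over 1.5 times with single libraries. It was -0.06 without WT library 1, -0.21 without p110g-/- library 2, and -0.68 and -0.69 without WT library 2 or 3. Without any number 1 it was -0.19, and Trim25 alone passed as lower, against 1.97% of all genes. The IL-4 median was -0.18 without WT IL-4 library 1. Rsad2 was at 5233.0, 1479.1 and 1096.6 in the WT libraries 1 to 3 and at 1113.9, 413.1 and 781.0 in those of p110g-/- (-1.52, SE 0.48, adjusted p = 0.14). The highest p110g-/- library was above the lowest WT library. Ifi27l2a, an interferon-induced membrane protein, was 5689.3, 2983.6 and 2205.0 in WT and 1578.3, 676.5 and 2518.8 in p110g-/- (-1.27, SE 0.37, adjusted p = 0.1), and these groups overlapped too. Pml was 2244.7, 1928.2 and 1781.8 and 1721.9, 1581.3 and 1722.6 (-0.24, SE 0.08, adjusted p = 0.14), with every p110g-/- library below every WT library.

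In IFNg/LPS, libraries of the same number were taken as paired across genotypes, from their correlation in these data and not from the labels. A fit of all 18 libraries gave each number 1 shift, shared by all 6 groups, as a block. It is thus not a paired test of the IFNg/LPS libraries alone. The observed difference of number 1 was not alike in the groups: medians over members were 1.27 in WT M-CSF and 0.14 in p110g-/- IL-4. This fit with the block called 4 members lower in p110g-/-, against 9.73% of all genes. They were Ifi35 (adjusted p = 0.018 with the block), Trim21 (0.042), Tor3a (0.047) and Pml (0.049). Without any number 1, the same 4 and Isg20 and Sp100 were lower, 6 of 42, against 14.1% of all genes. Both shares were near the background. Ifi35, an interferon-induced leucine zipper protein, was 9546.0, 8865.4 and 10003 in WT and 7687.6, 5339.1 and 6452.0 in p110g-/- (-0.56, SE 0.20, adjusted p = 0.079 without the block). Trim21 was 12016, 10399.5 and 10753 and 10229.9, 7208.9 and 9398.9 (-0.32, SE 0.12, adjusted p = 0.097). Pml was 15404, 14239 and 14882 and 12915, 12016 and 13016 (-0.23, SE 0.08, adjusted p = 0.053). None of these 3 genes had overlapping genotypes, and the p110g-/- library numbered 2 was the lowest of the 6 for each. Without p110g-/- library 1, the library in which Pik3cg stood above WT, Ifi35 and Trim21 passed as lower, against 7.94% of all genes, and the median over members was -0.32.

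In IL-4 the largest difference was that of Rsad2. It was 745.7, 472.0 and 415.8 in WT and 222.4, 119.2 and 137.4 in p110g-/- (-1.77, SE 0.48, adjusted p = 0.057), with every WT library above every p110g-/- library. It passed in 5 of 17 alternatives, among them DESeq2 and the block (adjusted p = 0.0067). The rule used here for pairing by number, a correlation over 0.1 for all 3 numbers, was not met between genotypes in IL-4, however. The correlations were 0.43, 0.30 and 0.05 for numbers 1 to 3, and the rule cannot show that pairing was absent. Oasl1 was 97.5, 74.7 and 53.9 and 41.6, 13.6 and 17.0 (-1.73, SE 0.67, adjusted p = 0.21), also without overlap. Isg15 was 179.2, 188.3 and 156.9 and 107.6, 89.1 and 97.3 (-0.83, SE 0.38, adjusted p = 0.32), again without overlap. Pml did not pass (-0.21, SE 0.08, adjusted p = 0.17). Usp18 had nearly the same level in both genotypes, 1466.3, 1069.2 and 1063.5 in WT and 1300.0, 1160.9 and 1190.2 in p110g-/-, and its fitted difference was 0.04 with an SE of 0.49.

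**Figure D5:**
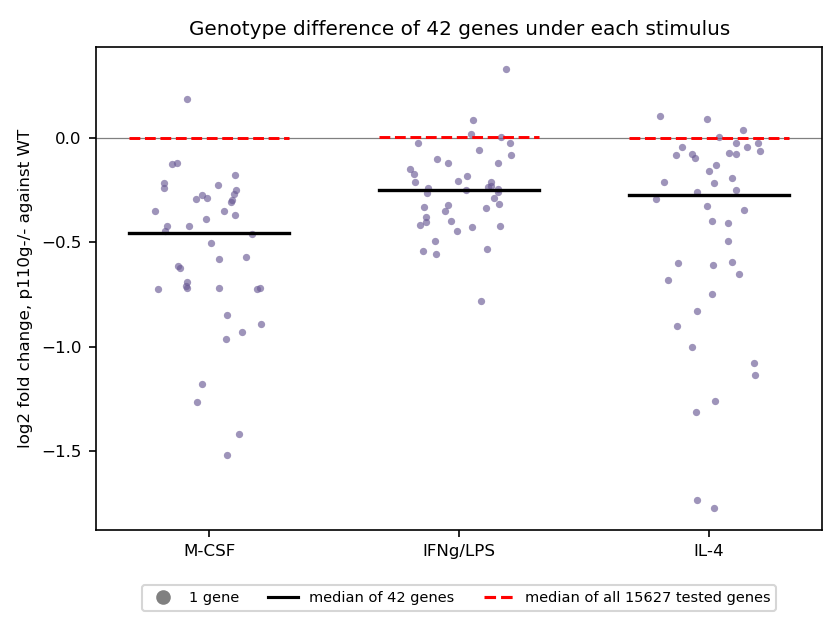
Each point is 1 of 42 members; the vertical axis is the log2 fold change of p110g-/- against WT in M-CSF, IFNg/LPS and IL-4. Black lines are medians of the members (-0.46, -0.25 and -0.28) and red dashed lines medians of all 15627 genes tested; none of the points passes an adjusted p of 0.05.

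No member passed a test of whether the difference between genotypes changed with the stimulus (limma, Benjamini-Hochberg). For IFNg/LPS, 0 of 42 members passed, against 2.44% of all genes, and 1 was lower at an unadjusted p under 0.05, against 8.76%. That member was Tor3a, with a fitted interaction of -0.43 (SE 0.19, adjusted p = 0.26). With M-CSF its libraries 1 to 3 stood at 6264.6, 4607.8 and 4349.4 (WT) and 6329.1, 5266.4 and 5509.9 (p110g-/-), which overlap. With IFNg/LPS they stood at 37242, 33188 and 29802 (WT) and 31088, 26019.5 and 27461 (p110g-/-), with 1 p110g-/- library within the WT range. The interaction of Tor3a passed with the block (adjusted p = 0.048) and without any number 1. Rsad2 (1.37, SE 0.67, adjusted p = 0.31) and Trim25 (0.24, SE 0.13, adjusted p = 0.35) had the next smallest p. For IL-4, 0 of 42 passed, as did 0% of all genes, and none had an unadjusted p under 0.05, against 3.65% of all genes higher and 3.74% lower. edgeR and DESeq2 called no member in either interaction. The smallest adjusted p in IL-4 was that of Dtx3l, a ubiquitin ligase partner of PARP9 (0.38, SE 0.22, adjusted p = 0.78). These p-values do not show that the genotypes respond alike.

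Of 36 other genes of the pathway, from ligands to inhibitors, 31 were in the table and were tested. With IFNg/LPS, 27 rose and 3 fell in WT, against 36.3% and 37.5% of all genes, and 26 rose and 4 fell in p110g-/-, against 36.2% and 36.8%. The ligand gene Ifnb1 was at 96.0, 53.2 and 60.0 in WT IFNg/LPS and 88.4, 34.2 and 54.6 in p110g-/- IFNg/LPS, and at or under the value of 3 reads in all M-CSF and IL-4 libraries. Among transcription factors, Stat2 rose by 3.84 in WT and 3.88 in p110g-/- on the log2 scale, and Irf9 by 1.21 and 1.21. Irf7, the factor that amplifies interferon alpha production, was 8764.4, 1570.0 and 1636.7 in WT M-CSF and 217271, 219351 and 217239.8 in WT IFNg/LPS (6.27, SE 0.61, adjusted p = 1.5e-07). Its WT M-CSF library 1 stood above numbers 2 and 3, as in the members. In IL-4, Irf7 was 391.9, 220.6 and 188.6 in WT (-3.47, SE 0.61, adjusted p = 0.00032) and 147.8, 85.3 and 150.5 in p110g-/- (-3.62, SE 0.61, adjusted p = 0.00021), below all M-CSF libraries of the same genotype.

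With IL-4, 6 of 31 pathway genes rose and 14 fell in WT, against 22.9% and 21.1% of all genes, and 6 rose and 12 fell in p110g-/-, against 22.7% and 21.2%. The inhibitor Socs1, which blocks the JAK kinases, rose from 70.7, 34.9 and 32.5 to 833.0, 1122.3 and 1018.9 in WT (4.48, SE 0.34, adjusted p = 1.1e-07) and from 49.4, 19.7 and 34.2 to 771.2, 1477.7 and 1810.8 in p110g-/- (5.26, SE 0.34, adjusted p = 1.8e-08). Irf9 fell in both genotypes (-0.77 in WT and -0.61 in p110g-/-). Between genotypes, no pathway gene passed in M-CSF, 2 were higher and 4 lower in p110g-/- in IFNg/LPS, against 6.94% and 7.79% of all genes, and 1 was higher in IL-4, against 1.34%. In IFNg/LPS the receptor gene Tlr4 was lower (-0.71, SE 0.13, adjusted p = 0.0016) and the kinase gene Tyk2 higher (0.47, SE 0.06, adjusted p = 0.00022). Tyk2 was also the 1 pathway gene to pass the interaction with IFNg/LPS (0.43, SE 0.09, adjusted p = 0.022), a call that ended under 6 of 23 alternatives with adjusted p up to 0.081: the compared groups alone, or without WT M-CSF library 3, p110g-/- M-CSF library 1 or 3, or library 2 of either IFNg/LPS group. In IL-4 the higher gene was the phosphatase gene Ptpn2 (0.41, SE 0.08, adjusted p = 0.0081), which did not pass without p110g-/- IL-4 library 2 or 3 (adjusted p up to 0.056).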

How the data were processed

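RNA of 18 libraries of bone marrow derived macrophages was sequenced, 3 for each of 6 groups given by the labels' titles. The submitters' processing notes name CASAVA 1.8.2, Bowtie2, DESeq and the build mm9; the counting method and strand handling are not given in the sources used here. The deposited values are a signal: each library's values are whole multiples of 1 step, so the authors' read counts divided by 1 factor per library, with 99.982% to 100% of values within 0.1 of a whole read. Recovered reads were 40.1 to 69.6 M (1e6) per library.

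A model of the 6 group means was fitted to log2(value + 1) by limma 3.58.1 (R 4.3.3; trend and robust moderation). It used all 18 libraries and the 15627 genes that reached 10 in 3 or more of them. Calls needed a Benjamini-Hochberg adjusted p under 0.05 over all of them. Alternatives were other pseudocounts (0.5 and 5) and filters (none, or 50), plain moderation, only the groups compared, a replicate block, libraries left out, and edgeR 4.0.16 and DESeq2 1.42.0 on the recovered reads. The fits were tested on simulated data, where limma called unchanged genes more often than its nominal rate and edgeR did not. Counts, shares and adjusted p given here are by limma unless another fit is named.

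The members and gene lists were chosen with earlier results of these data known. Genes given with values in each library were up to 4 per direction with the smallest adjusted p in each comparison, the 3 with the smallest p where none passed, and 9 genes chosen by role. A few others (Ifi44, Cmpk2, Trim25, Oasl1 and Tor3a among them) were named for a range, a promoter or an alternative after their values were seen. The labels do not say whether libraries came from separate mice or cultures, so p-values measure only the spread between these libraries. Libraries with the same number were taken as paired where their deviations from the group means correlated at over 0.1 for all 3 numbers. This held for the genotypes in IFNg/LPS (0.55, 0.34 and 0.26 for numbers 1 to 3), for WT IFNg/LPS against M-CSF (0.26, 0.19 and 0.16), and for IL-4 against M-CSF in WT (0.46, 0.35 and 0.18) and p110g-/- (0.40, 0.25 and 0.19). It did not hold for the genotypes in M-CSF or IL-4, or for p110g-/- IFNg/LPS against M-CSF. The pairing comes from this check and not from the labels, and the check cannot show that pairing was absent. The replicate block gave each number 1 shift shared by all 6 groups. Protein sequences were not used here.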

Additional observations from a re-analysis of the deposited data

How the results depend on the processing

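Over 17 alternatives for each response and genotype comparison and 23 for each interaction, 42 members rose with IFNg/LPS in every one but DESeq2, which gave Ifit3 no p and called 41. With 1 library left out at a time, 21 to 37 members passed in IL-4 against M-CSF in WT and 17 to 30 in p110g-/-, and 0 to 1, 0 to 2 and 0 to 1 between genotypes in M-CSF, IFNg/LPS and IL-4. The lowest, 21, was without WT M-CSF library 1, and a fit of the WT groups alone gave 19. Between genotypes in M-CSF, 1 member passed with the replicate block (Rsad2), 1 without any number 1 (Trim25), 1 without p110g-/- library 3 (Ifi27l2a) and 3 by DESeq2 (Cmpk2, Ifi27l2a and Rsad2). In IFNg/LPS, 4 passed with the block, 6 without any number 1, 2 without p110g-/- library 1 (Ifi35 and Trim21), and 1 each with a filter of 50 (Pml), with the 2 groups alone (Ifi27l2a) and by DESeq2 (Pml). In IL-4, 2 passed with the block (Oas2 and Rsad2), 2 without any number 1 (Pml and Rsad2), 4 with the 2 groups alone (Cmpk2, Isg15, Mx1 and Rsad2), and 1 each without p110g-/- library 1 and by DESeq2 (Rsad2). In the interaction with IFNg/LPS, 1 (Tor3a) passed with the block and 1 without any number 1; for IL-4 none passed under any. The cause of these changes was not tested. The rule for pairing by number was not met between genotypes in M-CSF or IL-4. Of 1564 alternative values for single genes, 1504 kept their call, 20 lost it, 40 gained it and 0 changed direction. The block changed no total of calls by over 1.5 times other than between genotypes and in the interaction with IFNg/LPS, but 2 members (Tor3a and Usp18) rather than 1 rose with IL-4 in WT. Depth limits the members most where values are low, as for Oasl1 at 13.6 in p110g-/- IL-4 library 2.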
